A study of Homo sapiens with 6 samples.

Results

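The genes described here are 53 genes of DNA replication and mitosis, 27 that act in S phase and 26 that act in mitosis, of 27672 genes in the table. They were taken by gene symbol from lists of replication licensing and fork genes, mitotic kinases, kinesins and spindle checkpoint genes, a rule that does not use their levels. All 53 were in the table and all passed the filter on low counts, with 191 counts as the lowest value of an S phase gene in any library (GINS3) and 736 as the lowest of a mitotic gene (CDC25C).

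RNA-seq of polyadenylated RNA was carried out on H9 cells, a human embryonic stem cell (hESC) line, and on neuromesodermal progenitor-like (NMP-L) cells made from the same line, with 3 biological replicates of each. Every library of both conditions is marked WT in the deposited values. The hESCs (day 0, untreated) grew on fibronectin (5 µg/cm2) in DEF medium, to which Noggin at 10 ng/ml and bFGF at 30 ng/ml were added. The NMP-L (D3) cells had spent 3 days in N2/B27 medium. Added to it were CHIR99021 (3 µM), an activator of WNT signalling, and bFGF (20 ng/ml). Only this line was used, and medium, substrate and time differ together between the conditions, so their parts cannot be told apart.

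In each cell cycle, origins of replication are first licensed, when ORC, CDC6 and CDT1 load the ring-shaped MCM2 to MCM7 helicase onto DNA, and fired later, when CDC45 and the GINS complex join the ring and polymerases follow. Mitosis is then started by cyclin B with CDK1 and carried through by the Polo and Aurora kinases, the spindle kinesins and the checkpoint that holds chromosomes until they are attached. Many of the replication genes are transcribed through E2F sites, and many of the mitotic genes through CHR elements (cell cycle genes homology region) and CCAAT boxes, which bind NF-Y. Pluripotent stem cells are known for fast cycles in which these genes are highly expressed.

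The libraries held between 19454543 and 23036426 expected counts. The labels were checked against a pair of genes: T (brachyury), a marker of NMP cells, had at most 2 counts in the hESC libraries and 293 to 629 in the NMP-L libraries, and NANOG, a pluripotency factor, lay at 86.4 to 97.8 CPM (counts scaled to the library total) and at 15.3 to 15.8 CPM. The pluripotent stem cell markers were POU5F1, NANOG, SOX2, LIN28A and DPPA4, and the NMP markers T, SOX2, CDX1, CDX2, SP5 and NKX1-2. The 5 pluripotent markers summed to 5720 to 5890 CPM in hESCs and 4120 to 4410 CPM in NMP-L cells. Sums of the 6 NMP markers were 262 to 283 and 358 to 437 CPM. SOX2 is in both lists, so its level enters both sums, also in hESCs. The markers of presomitic mesoderm, endoderm and neural progenitors summed to at most 7.05, 3.03 and 1.08 CPM in hESCs and to at most 3.43, 25.7 and 12.8 CPM in NMP-L cells, and the part of such cells in the results was not tested. Some libraries also deviated from the others of their condition along GC content. Across genes, the Spearman correlation of this deviation with GC content was -0.644 in hESC replicate 1 and -0.505 in NMP-L replicate 3, against 0.593 in NMP-L replicate 1, 0.459 and 0.359 in hESC replicates 2 and 3, and -0.03 in NMP-L replicate 2. Values corrected for GC content and transcript length, library by library, are therefore given beside the calls they change. The correction is fitted to each library's deviation from the mean of the libraries of both conditions. It thus also removes any trend with GC content or length between the conditions, whatever its source.

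The promoters of the 2 classes held different motifs, and stretches are shown for 3 genes of each class whose levels are described below. RefSeq gave a promoter window (250 bases before to 50 after the start, from its GRCh38 table) for 45 of the 53 genes, 24 of S phase and 21 of mitosis, and each of the 45 windows matched GRCh37 exactly and once. Printed are the 120 bases that end at RefSeq's start, read along the gene's strand, with the E2F words (TTTCCCGC, TTTCGCGC, TTTGCCGC and TTTGGCGC), the CHR words (TTTGAA and TTTAAA) and the CCAAT box in capitals, on either strand. The GRCh37 positions are chr2:136634014-136634133 (minus strand) for MCM6, chr7:99699021-99699140 (minus) for MCM7, chr18:657533-657652 (plus) for TYMS, chr5:68462857-68462976 (plus) for CCNB1, chr16:23690090-23690209 (plus) for PLK1 and chr10:94352767-94352886 (plus) for KIF11. Gene positions given below come from GENCODE, whose outermost start lies further upstream for MCM7, PLK1 and KIF11 and slightly upstream for CCNB1, so these 4 stretches lie wholly or in part inside the GENCODE gene.
MCM6: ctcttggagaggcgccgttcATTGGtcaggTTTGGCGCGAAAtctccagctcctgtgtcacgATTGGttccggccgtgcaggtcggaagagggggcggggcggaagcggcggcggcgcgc
MCM7: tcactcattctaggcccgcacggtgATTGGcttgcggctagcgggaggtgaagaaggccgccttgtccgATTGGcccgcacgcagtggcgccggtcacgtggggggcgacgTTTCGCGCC
TYMS: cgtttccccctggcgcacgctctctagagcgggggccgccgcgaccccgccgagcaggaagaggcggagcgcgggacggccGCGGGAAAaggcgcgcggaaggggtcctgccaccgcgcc
CCNB1: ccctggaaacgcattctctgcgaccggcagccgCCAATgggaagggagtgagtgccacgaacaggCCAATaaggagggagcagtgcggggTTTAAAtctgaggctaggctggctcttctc
PLK1: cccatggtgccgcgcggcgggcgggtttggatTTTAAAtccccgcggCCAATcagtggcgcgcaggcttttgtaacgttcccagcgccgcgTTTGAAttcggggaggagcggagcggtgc
KIF11: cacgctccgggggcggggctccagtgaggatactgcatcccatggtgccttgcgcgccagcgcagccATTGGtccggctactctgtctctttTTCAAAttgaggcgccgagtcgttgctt
The E2F words of MCM6 overlap each other on opposite strands, and those of MCM7 and TYMS stand alone. A CCAAT box of MCM7 crosses the start, so only its first letters are in view. The 3 mitotic stretches each hold a CHR word within 30 bases of the start (30 in CCNB1, 29 in PLK1 and 28 in KIF11) and a CCAAT box upstream of it.

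Over the 300-base windows, an E2F word was present in 14 of 24 S phase genes (58.3%) and 2 of 21 mitotic genes (9.52%), against 3.33% of all 27305 promoters and 5.16% of those of the genes tested. A CHR word was present in 17 of 21 mitotic genes (81.0%) and 2 of 24 S phase genes (8.33%), against 24.3% of all promoters and 15.9% of those of tested genes. The CCAAT box was common to both classes, in 62.5% of S phase and 81.0% of mitotic windows, against 35.7% of all promoters. These counts describe letters in a window. Split by call, E2F words stood in 3 of the 5 S phase genes with a window that were higher in NMP-L cells, 5 of the 7 that were lower and 6 of the 12 that did not pass the test, and CHR words in 3 of 4, 2 of 3 and 12 of 14 mitotic genes.

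Between hESCs and NMP-L (D3) cells the replication and mitosis genes moved in both directions and by little. Of the 53, 10 were higher in NMP-L cells, 12 were lower and 31 did not pass the test (edgeR's quasi-likelihood test, Benjamini-Hochberg adjusted p under 0.05 over all 15517 genes tested). The 22 that passed are 41.5% of the genes, against 55.8% of all genes tested (29.1% higher and 26.7% lower). For the 53 genes the median size of change was 0.18 on the log2 scale, against 0.40 for all genes tested. The largest standard error among the 53 was 0.18, and the median over all genes tested was 0.12. Genes were not matched for level in this comparison. Only MCM5, MCM6 and CENPE, 5.66% of the 53, changed by at least 0.5 (log2), a size that 41.3% of all genes reached and that 38.3% reached while passing the test (19.9% higher and 18.4% lower). The libraries of the conditions did not overlap for 27 genes (50.9%), 9 above and 18 below in NMP-L cells, against 61.6% of all genes (32.1% above and 29.5% below). Together the 53 genes took 0.623% ± 0.013 (SD, n = 3) of the TPM (transcripts scaled by length and library total) in hESCs and 0.634% ± 0.014 in NMP-L cells. In bulk RNA, fewer cells in a phase of the cycle and less RNA of a gene per cell cannot be told apart.

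**Figure D1:**
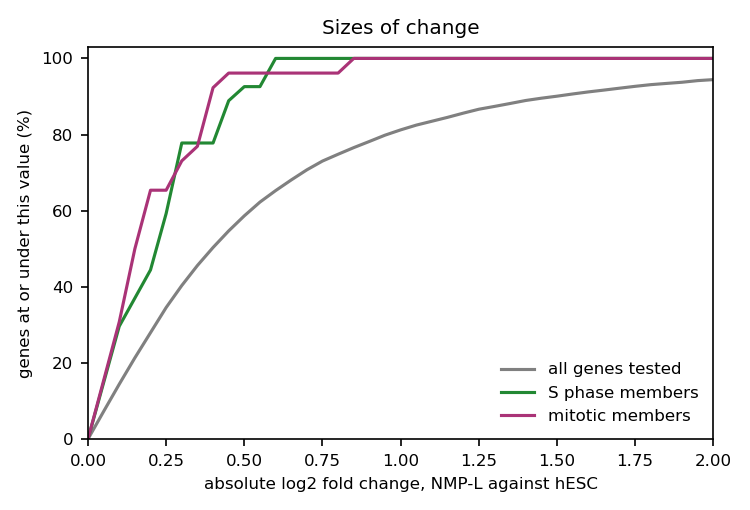
Share of genes (vertical axis, %) whose absolute log2 fold change between NMP-L cells and hESCs (horizontal axis) is at or under a given value, for the 27 S phase genes, the 26 mitotic genes and all 15517 genes tested; the horizontal axis ends at 2. Both curves of the cell cycle genes run above and to the left of the curve for all genes, which were not matched to them for level.

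S phase genes passed the test in 13 of 27 cases (48.1%; 5 higher and 8 lower) and mitotic genes in 9 of 26 (34.6%; 5 higher and 4 lower). Their median log2 fold changes, NMP-L minus hESC, were -0.07 and -0.04, beside 0.03 for all genes; the S phase median was -0.11 without hESC replicate 1 and -0.03 without NMP-L replicate 3, and the mitotic median -0.08 without hESC replicate 3 and -0.03 without NMP-L replicate 2. These splits depended on the scaling. With library size alone, which moved the median of all genes to 0.10, they became 6 higher and 4 lower for S phase and 5 and 4 for mitosis (all genes 34.2% and 23.2%), and with TPM, where that median was 0.12, 7 and 4 for S phase and 8 and 3 for mitosis (34.3% and 21.9%). With RLE size factors they were 4 and 9, and 4 and 7 (27.8% in each direction), and with upper-quartile scaling 4 and 9, and 5 and 7 (27.2% and 28.1%). After the correction for GC content and length, 17 genes of each class passed, 5 higher and 12 lower in each (15 genes gained a call, and RFC4, POLD1 and CCNA2 lost theirs), when 64.4% of all genes did (32.0% higher and 32.4% lower). Without hESC replicate 1, 13 S phase and 10 mitotic genes passed (56.2% of all genes), and without NMP-L replicate 3, 9 and 7 (50.5%). Without hESC replicate 3 they were 7 and 6 (45.9%) and without NMP-L replicate 2, 8 and 7 (48.7%). The 11 genes that passed in all 16 alternative analyses were MCM2, MCM5, MCM6, MCM7, RRM1, TYMS, CCNB1, PLK1, AURKB, BIRC5 and CENPE. How many of all genes passed in all 16 was not determined, so the 11 have no share to be set against. Single analyses called 43.3% to 64.4% of all genes.

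**Figure D2:**
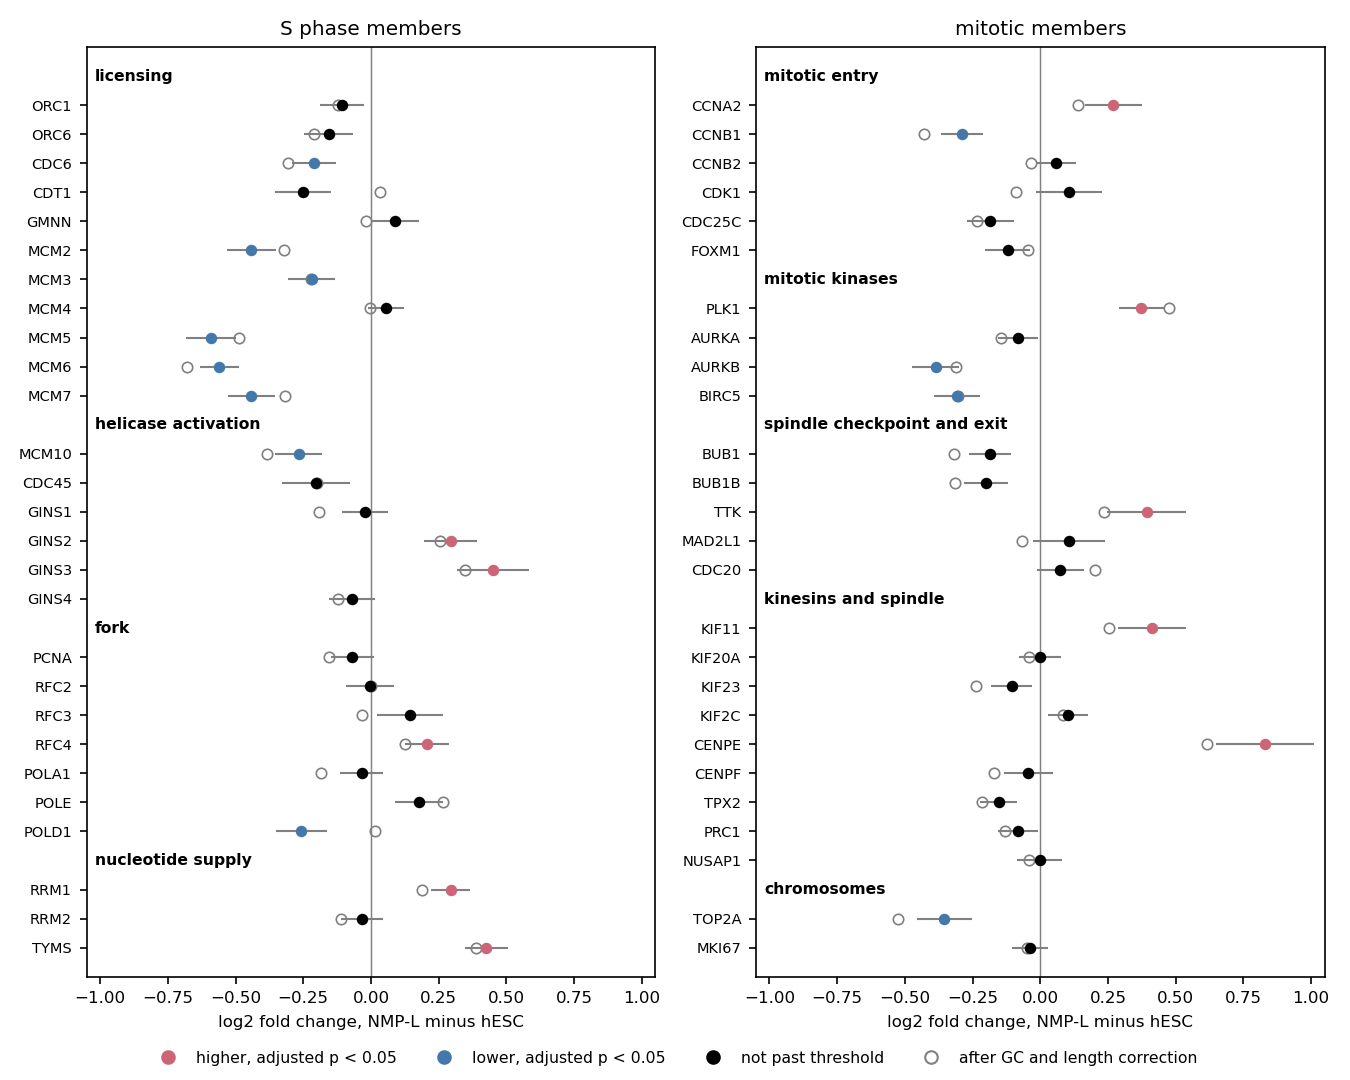
Log2 fold change (horizontal axis, NMP-L minus hESC) of each of the 27 S phase genes (left) and 26 mitotic genes (right), grouped by role. Filled points with bars are the estimate ± SE, coloured where the adjusted p was under 0.05, and open points are the values after correction for GC content and length. MCM5 (-0.59) and CENPE (0.83) lie at the ends.

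Licensing genes that passed the test were lower in NMP-L cells: of 11, 0 were higher, 6 were lower and 5 did not pass, with a median of -0.22. The 6 are 54.5% of the licensing genes, against 26.7% of all genes that were lower and 55.8% that passed in either direction. The 6 were MCM2, MCM3, MCM5, MCM6, MCM7 and CDC6, and thus 5 of the 6 subunits of the replicative helicase. MCM6 lay at 356, 362 and 361 CPM in the hESC libraries and at 241, 257 and 234 CPM in the NMP-L libraries. Its hESC libraries were nearly level and all above the NMP-L libraries. The hESC level was 1.47 times the NMP-L level (log2 fold change -0.56, SE 0.07, adjusted p = 4.2e-05). MCM6 lies on GRCh37 chromosome 2, from 136597196 to 136634013. For MCM5 (chromosome 22, 35796127 to 35821424), hESC libraries held 190, 226 and 210 CPM and NMP-L libraries 149, 141 and 125 CPM. Here too the conditions did not overlap, at a log2 fold change of -0.59 (SE 0.09, adjusted p = 0.00021).

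MCM2 (chromosome 3, 127317253 to 127341279) was at 197, 232 and 225 CPM in hESCs and 172, 164 and 145 CPM in NMP-L cells. MCM7 (chromosome 7, 99689856 to 99699563) was at 357, 422 and 388 CPM and then at 299, 299 and 260.5 CPM. Both fell by 0.44 on the log2 scale (SE 0.09, adjusted p = 0.0016 for MCM2 and 0.0011 for MCM7), with no overlap between the conditions. MCM3 was at 405, 481 and 436 CPM in hESCs and 409, 372 and 355 CPM in NMP-L cells, so that hESC replicate 1 lay below NMP-L replicate 1. Its change of -0.22 (SE 0.09, adjusted p = 0.046) no longer passed with library size alone (adjusted p = 0.17), with TPM (0.16) or without any of 4 of the libraries (hESC replicates 2 and 3, NMP-L replicates 2 and 3; adjusted p up to 0.14).

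MCM4, the remaining subunit of the ring, did not fall with the others. It lay at 396, 408 and 388 CPM in hESCs and at 409, 424 and 405 CPM in NMP-L cells. The conditions overlapped, and the log2 fold change was 0.06 (SE 0.07, adjusted p = 0.51). It was -0.00 after the correction for GC content and length (adjusted p = 0.94) and 0.15 on the TPM scale (adjusted p = 0.035), where the median of all genes was itself 0.12. Within each library, MCM4 made up 14.8%, 13.5% and 13.6% of the summed TPM of MCM2 to MCM7 in hESCs and 17.5%, 18.5% and 19.3% in NMP-L cells, while that sum was 1151, 1255 and 1209 TPM and then 1038, 1017 and 989 TPM. Its ratio to the geometric mean of the other 5 subunits was 0.906, 0.813 and 0.819 in hESCs and 1.13, 1.20 and 1.27 in NMP-L cells. The ratios did not overlap, and they do not depend on the scaling between libraries. In order of TPM, MCM4 stood after MCM3, MCM7, MCM6 and MCM5 in hESCs, and after MCM3 and MCM7 alone in NMP-L cells. Neighbours in this order did not overlap in 3 of 5 cases in hESCs (MCM7 above MCM6, MCM6 above MCM5, MCM4 above MCM2) and in all 5 in NMP-L cells.

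**Figure D3:**
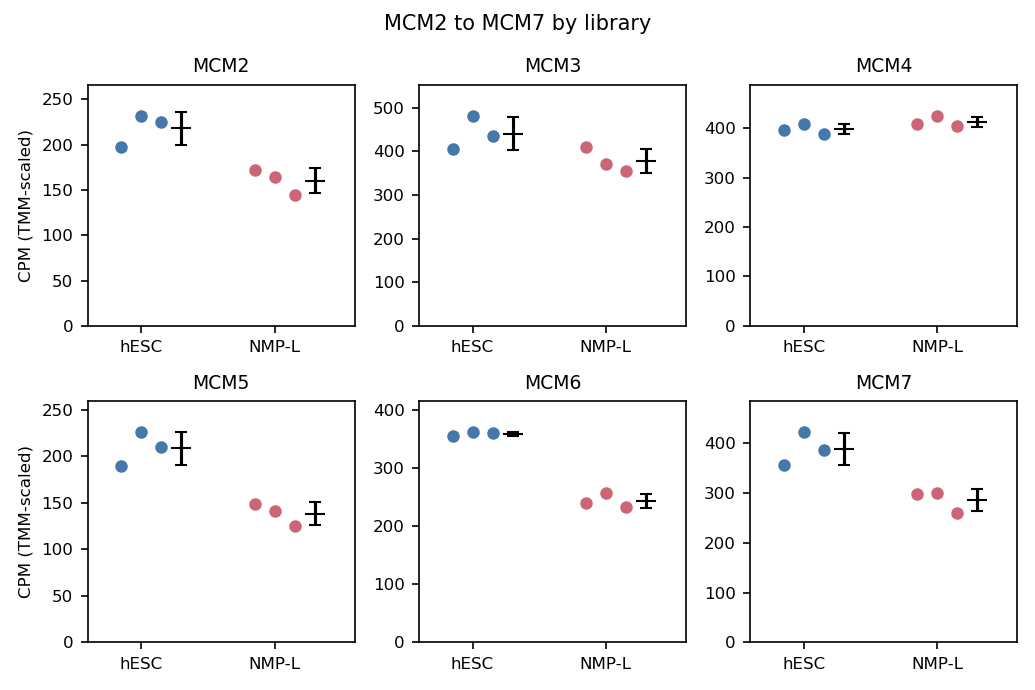
Level in CPM (vertical axis, scaled by TMM) of the 6 MCM2 to MCM7 subunits in each library of hESCs (left, blue) and NMP-L cells (right, red), with bars for the mean ± SD of 3 libraries; vertical scales differ between panels. MCM2, MCM5, MCM6 and MCM7 do not overlap between the conditions, while MCM3 and MCM4 do.

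The other licensing genes changed less. CDC6, which loads the helicase with ORC, was lower in NMP-L cells (-0.21, adjusted p = 0.042), with no overlap, but did not pass when any single library other than hESC replicate 1 was left out (adjusted p up to 0.13). The origin recognition genes ORC1 and ORC6 gave -0.11 (adjusted p = 0.28) and -0.16 (0.16), and passed after the correction at -0.12 (adjusted p = 0.047) and -0.21 (0.014). CDT1, the loader that is destroyed once S phase begins, was at 97.9, 116 and 121 CPM in hESCs and 102, 95.4 and 83.4 CPM in NMP-L cells. Its log2 fold change of -0.25 did not pass the test (SE 0.10, adjusted p = 0.058) and was 0.03 after the correction for GC content and length. GMNN, the inhibitor of CDT1, was at 70.9, 73.9 and 61.9 CPM and 71.6, 73.6 and 74.4 CPM, a change of 0.09 (SE 0.09, adjusted p = 0.43). The ratio of CDT1 to GMNN in TPM ranged from 0.560 to 0.816 in hESCs and from 0.462 to 0.595 in NMP-L cells, so the conditions overlapped.

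Genes that turn the loaded ring into an active helicase were split. Of these 6, GINS2 and GINS3 were higher in NMP-L cells, MCM10 was lower and CDC45, GINS1 and GINS4 did not pass the test. GINS3 (chromosome 16, 58328984 to 58440051) rose from 12.2, 13.8 and 9.97 CPM to 16.7, 17.4 and 15.2 CPM, and GINS2 from 44.5, 51.8 and 47.9 CPM to 60.4, 63.0 and 53.5 CPM. For neither did the conditions overlap. The log2 fold changes were 0.45 (SE 0.13, adjusted p = 0.013) for GINS3, lost without hESC replicate 3 (adjusted p = 0.082), and 0.29 (SE 0.10, adjusted p = 0.023) for GINS2, lost without any of 4 libraries (hESC replicates 1 and 3, NMP-L replicates 1 and 2; adjusted p up to 0.099). The other subunits of the same complex stood at -0.02 (GINS1, adjusted p = 0.83) and -0.07 (GINS4, adjusted p = 0.51), and GINS1 became -0.19 after the correction (adjusted p = 0.036). MCM10, which helps the helicase to open origins, gave -0.27 (adjusted p = 0.020), lost without NMP-L replicate 1 or 3 (adjusted p up to 0.075), and CDC45 gave -0.20 (adjusted p = 0.19).

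Of the 7 fork genes, 1 was higher, 1 was lower and 5 did not pass the test, with a median of -0.00. The share that passed was 28.6%, against 55.8% of all genes. PCNA, the sliding clamp, was at 200.2, 208 and 199.7 CPM in hESCs and 193, 208 and 179 CPM in NMP-L cells. These libraries overlapped (-0.07, SE 0.08, adjusted p = 0.48), and the corrected value was -0.15 (adjusted p = 0.019). Of the clamp loader subunits, RFC4 was higher (0.21, adjusted p = 0.047) while RFC2 gave -0.00 (adjusted p = 0.98) and RFC3 0.14 (0.34). The RFC4 call was lost after the correction (adjusted p = 0.061) and without hESC replicate 1 or 3 or NMP-L replicate 1 or 2 (adjusted p up to 0.17). The polymerase genes were at -0.03 for POLA1 (adjusted p = 0.74), which primes synthesis, 0.18 for POLE (0.11) of the leading strand and -0.26 for POLD1 (0.038) of the lagging strand. After the correction POLA1 was at -0.19 (adjusted p = 0.011) and POLE at 0.27 (0.0016), so both passed. POLD1 has the second highest GC content of the 53 genes (63.9%). Its value became 0.01 after the correction (adjusted p = 0.81), and its call was lost without hESC replicate 2 or 3 or NMP-L replicate 2 or 3 (adjusted p up to 0.14).

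Of the 3 enzymes that supply nucleotides, 2 were higher in NMP-L cells, as were 29.1% of all genes. TYMS, which makes thymidylate (chromosome 18, 657653 to 673578), was at 86.9, 88.6 and 80.5 CPM in hESCs and 112, 119 and 113 CPM in NMP-L cells. RRM1, the large subunit of ribonucleotide reductase (chromosome 11, 4115937 to 4160162), was at 167, 157 and 164 CPM and 197, 205 and 196 CPM. Both were higher in all 3 NMP-L libraries than in any hESC library, by 0.43 (SE 0.08, adjusted p = 0.00078) and 0.30 (SE 0.07, adjusted p = 0.0044) on the log2 scale. RRM2, the small subunit of the same enzyme, gave -0.03 (adjusted p = 0.75). The RRM1 to RRM2 ratio in TPM was accordingly 1.32, 1.29 and 1.40 in hESCs and 1.72, 1.61 and 1.72 in NMP-L cells.

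Among the 6 genes of mitotic entry, CCNB1 was lower, CCNA2 higher and the other 4 did not pass the test. The share that passed was 33.3%, against 55.8% of all genes. CCNB1, the main B-type cyclin (chromosome 5, 68462962 to 68474072), lay at 335, 361 and 312 CPM in hESCs and 275, 286 and 264 CPM in NMP-L cells. The conditions did not overlap (-0.29, SE 0.08, adjusted p = 0.0076). CCNB2, the second B-type cyclin, gave 0.06 (adjusted p = 0.52), and the ratio of CCNB1 to CCNB2 in TPM was 1.57, 1.72 and 1.52 in hESCs and 1.23, 1.28 and 1.26 in NMP-L cells. CDK1, the kinase that both activate, was at 128, 95.2 and 97.7 CPM and 102, 117 and 127 CPM. Its libraries overlapped, with hESC replicate 1 the highest of all 6, and its change was 0.10 (SE 0.12, adjusted p = 0.49). CCNA2, the cyclin of S phase and early mitosis, gave 0.27 (adjusted p = 0.045) with overlapping libraries. That call was lost after the correction (adjusted p = 0.069) and without hESC replicate 2 or 3 or NMP-L replicate 2 or 3 (adjusted p up to 0.18). CDC25C, the phosphatase that activates CDK1, and FOXM1, a transcription factor of mitotic genes, gave -0.18 (adjusted p = 0.097) and -0.12 (0.24), and CDC25C passed after the correction at -0.23 (adjusted p = 0.0046).

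The mitotic kinases moved in opposite directions. PLK1, the Polo kinase (chromosome 16, 23688977 to 23701688), lay at 198, 224 and 214 CPM in hESCs and 296, 275 and 254 CPM in NMP-L cells. AURKB, the Aurora kinase of the chromosomal passenger complex (chromosome 17, 8108051 to 8113918), lay at 99.1, 113 and 107 CPM and 88.0, 79.6 and 76.9 CPM. Neither gene overlapped between the conditions, with PLK1 higher in NMP-L cells by 0.37 (SE 0.08, adjusted p = 0.0025) and AURKB lower at -0.39 (SE 0.09, adjusted p = 0.0029). Their ratio in TPM was 1.08, 1.07 and 1.06 in hESCs and 1.80, 1.87 and 1.77 in NMP-L cells. BIRC5, the survivin subunit of the same passenger complex (chromosome 17, 76210267 to 76221717), fell with AURKB, from 125, 137 and 125 CPM to 105, 112 and 95.6 CPM (-0.31, SE 0.09, adjusted p = 0.0098). The complex did not fall as a whole. INCENP was lower (-0.29, adjusted p = 0.012, but 0.079 after the correction) and CDCA8 was higher (0.28, adjusted p = 0.014). AURKA, the Aurora kinase of the spindle poles, gave -0.08 (adjusted p = 0.36), and -0.15 after the correction (adjusted p = 0.022).

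**Figure D4:**
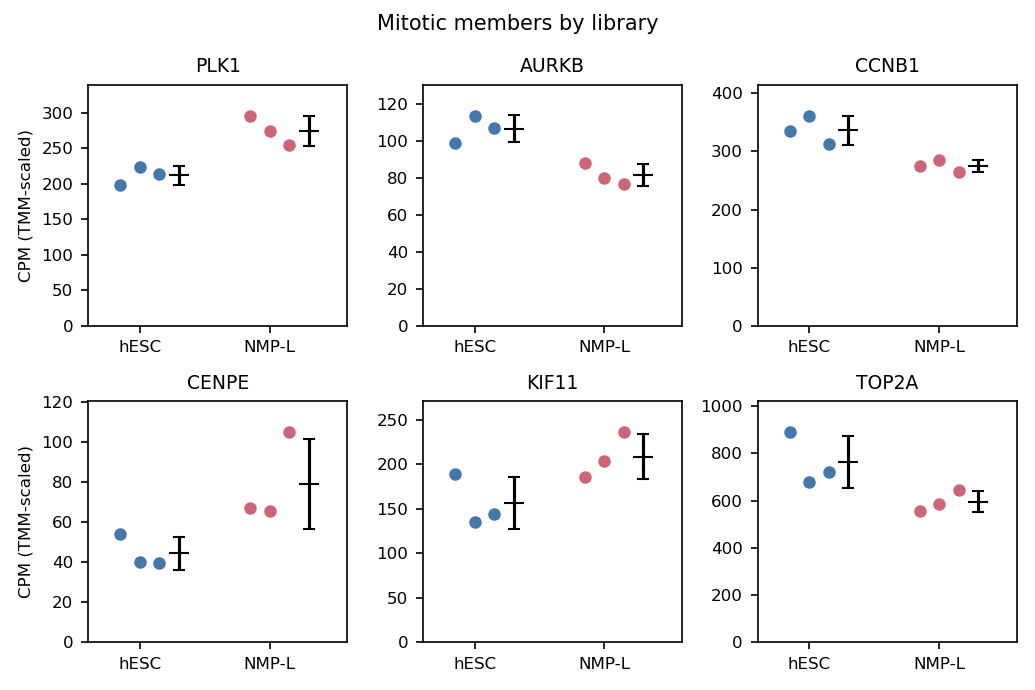
Level in CPM (vertical axis, scaled by TMM) of PLK1, AURKB, CCNB1, CENPE, KIF11 and TOP2A in each library of hESCs (left, blue) and NMP-L cells (right, red), with bars for the mean ± SD of 3 libraries; vertical scales differ between panels. KIF11 alone of the 6 overlaps between the conditions.

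Of the 5 spindle checkpoint genes, 1 passed the test (20.0%), against 55.8% of all genes. After the correction 4 passed, 2 higher and 2 lower, when 64.4% of all genes did. TTK, the kinase at the head of the checkpoint, was at 92.0, 68.8 and 73.8 CPM in hESCs and 83.1, 101 and 124 CPM in NMP-L cells. Its libraries overlapped through hESC replicate 1 (0.39, SE 0.14, adjusted p = 0.037), and the call was lost without hESC replicate 2 or 3 or NMP-L replicate 2 or 3 (adjusted p up to 0.17). BUB1 and BUB1B, checkpoint kinases of the kinetochore, gave -0.18 (adjusted p = 0.060) and -0.20 (0.056), and all their NMP-L libraries were below the hESC libraries. After the correction these values were -0.32 (adjusted p = 6.5e-05) and -0.31 (0.00014). MAD2L1, the checkpoint inhibitor, and CDC20, its target in the anaphase-promoting complex, gave 0.11 (adjusted p = 0.52) and 0.07 (0.49), and CDC20 became 0.20 after the correction (0.0018).

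Of the 9 kinesins and spindle proteins, CENPE and KIF11 were higher in NMP-L cells and 7 did not pass the test. The share that passed was 22.2%, against 55.8% of all genes. After the correction 6 passed, 2 higher and 4 lower, when 64.4% of all genes did. CENPE, a kinetochore motor (chromosome 4, 104026506 to 104119602), had the largest change of all 53 genes. It lay at 54.2, 40.1 and 39.5 CPM in hESCs and 66.9, 65.7 and 105 CPM in NMP-L cells. All NMP-L libraries were above the hESC libraries, and NMP-L replicate 3 was far above the rest. The level in NMP-L cells was 1.78 times that in hESCs (0.83, SE 0.18, adjusted p = 0.0022). It is also the gene with the lowest GC content of the 53 (35.4%). The change was 0.62 after the correction (adjusted p = 0.00020) and between 0.58 and 0.97 when single libraries were left out. KIF11, the motor that pushes the spindle poles apart, was at 189, 136 and 144 CPM and 185, 203 and 235 CPM. It overlapped through hESC replicate 1 (0.41, SE 0.13, adjusted p = 0.016), gave 0.25 after the correction (adjusted p = 0.0036) and was lost without hESC replicate 2 or 3 or NMP-L replicate 3 (adjusted p up to 0.089).

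The other motors and spindle genes lay between -0.15 and 0.10. The cytokinesis genes KIF20A, KIF23 and PRC1 gave 0.00 (adjusted p = 1.0), -0.11 (0.26) and -0.08 (0.38). After the correction KIF23 was at -0.24 (adjusted p = 0.00083) and PRC1 at -0.13 (0.031). KIF2C, which depolymerises microtubules, gave 0.10 (0.26), TPX2, an activator of AURKA, -0.15 (0.071) and NUSAP1, which bundles microtubules, -0.00 (0.98). CENPF, a large kinetochore protein, gave -0.04 (0.70). TPX2 and CENPF passed after the correction, at -0.22 (adjusted p = 0.0012) and -0.17 (0.0085). The ratio of CENPE to CENPF in TPM was 0.163, 0.148 and 0.142 in hESCs and 0.250, 0.232 and 0.341 in NMP-L cells.

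The last pair acts on chromosomes. TOP2A, the topoisomerase that untangles sister chromatids, was the mitotic gene with the most reads, at 889, 679 and 722 CPM in hESCs and 557, 586 and 646 CPM in NMP-L cells. It was lower in NMP-L cells without overlap (-0.36, SE 0.10, adjusted p = 0.011), with -0.52 after the correction (adjusted p = 1.2e-06) and -0.25 on the TPM scale (adjusted p = 0.11). MKI67, the proliferation antigen Ki-67, was at 338, 335 and 318 CPM in hESCs and 326, 315 and 324 CPM in NMP-L cells. These libraries overlapped, and the change was -0.04 (SE 0.07, adjusted p = 0.66).

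Compared per transcript length, PCNA was the highest of the 53 genes in both conditions, at 331, 332 and 326 TPM in hESCs and 330, 353 and 325 TPM in NMP-L cells. In hESCs CCNB1, MCM3, TOP2A, MCM7 and CDC20 followed, and in NMP-L cells CDC20, CCNB1, PLK1, MCM3 and TOP2A. The lowest were CENPE (13.3, 9.51 and 9.63 TPM) and GINS3 (11.6, 12.7 and 9.61 TPM) in hESCs and the same genes in NMP-L cells (17.0, 16.7 and 28.2 TPM for CENPE, 16.6, 17.1 and 16.0 TPM for GINS3). Most neighbours in these orders could not be told apart: of 52 pairs of neighbours, 9 did not overlap in hESCs and 12 in NMP-L cells.

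The levels per transcript length differed widely among the genes that changed, and are given as mean ± SD in TPM (n = 3) or as the range of the libraries. Among the licensing genes, MCM5 had 157 to 179 TPM in hESCs and 113 to 127 TPM in NMP-L cells, and MCM6 had 194 ± 2.47 and 140.5 ± 4.33 TPM. MCM2 was the scarcest ring subunit, with 128 ± 8.64 and 100.4 ± 5.55 TPM, and MCM7 had 265 ± 17.1 and 209 ± 9.16 TPM. CDT1 (85.9 ± 8.44 and 77.1 ± 5.49 TPM) was less abundant than its inhibitor GMNN (129 ± 12.5 and 146 ± 8.12 TPM) in both conditions. The GINS subunits that rose differed in level: GINS2 had 88.2 ± 4.92 and 116 ± 5.91 TPM, and GINS3 11.3 ± 1.55 and 16.6 ± 0.591 TPM. TYMS rose from 114 ± 5.31 to 164 ± 6.51 TPM and RRM1 from 105 ± 4.75 to 138 ± 4.34 TPM. Of the mitotic genes, CCNB1 (323 ± 19.7 and 282 ± 5.19 TPM) had more transcript than its kinase CDK1 (102 to 144 and 118 to 155 TPM). PLK1 went from 193 ± 8.57 to 268 ± 13.2 TPM, AURKB from 181 ± 9.26 to 148 ± 8.27 TPM and BIRC5 from 101 ± 3.72 to 87.1 ± 4.18 TPM. TOP2A had 269 ± 43.8 and 225 ± 25.1 TPM, and MKI67, whose transcript is long, 55.3 ± 1.56 and 57.8 ± 2.61 TPM. TTK had 53.5 ± 9.31 and 75.2 ± 17.6 TPM and KIF11 62.6 ± 12.6 and 89.1 ± 14.0 TPM.

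Set against each other inside each library, S phase and mitotic genes kept nearly the same balance. The mean log2 CPM of the mitotic genes minus that of the S phase genes was 0.713, 0.512 and 0.586 in hESCs and 0.619, 0.629 and 0.782 in NMP-L cells. The conditions overlapped, with means of 0.60 ± 0.10 and 0.68 ± 0.09 (SD, n = 3) and a difference of 0.07. Without NMP-L replicate 3 the difference was 0.02, and without hESC replicate 1 it was 0.13. These are the libraries with the strongest negative GC trend in each condition, and S phase genes have the higher median GC content (47.5% against 45.4%). A link between the difference and GC content was not tested. Taken as the difference between the mean log2 fold changes of the classes, the value was 0.07 before and 0.03 after the correction for GC content and length. In hESC replicate 1, 9 of 27 S phase genes and 17 of 26 mitotic genes lay above their condition mean, and in NMP-L replicate 3, 3 of 27 and 13 of 26. Taken as medians, the difference was 0.20, and there the largest hESC value (0.603) was below the smallest NMP-L value (0.629). The summed levels were 2884 ± 57.5 TPM and 2863 ± 31.2 TPM for the S phase genes and 3345 ± 163 TPM and 3474 ± 154 TPM for the mitotic genes (SD, n = 3), differences smaller than the SD within either condition.

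**Figure D5:**
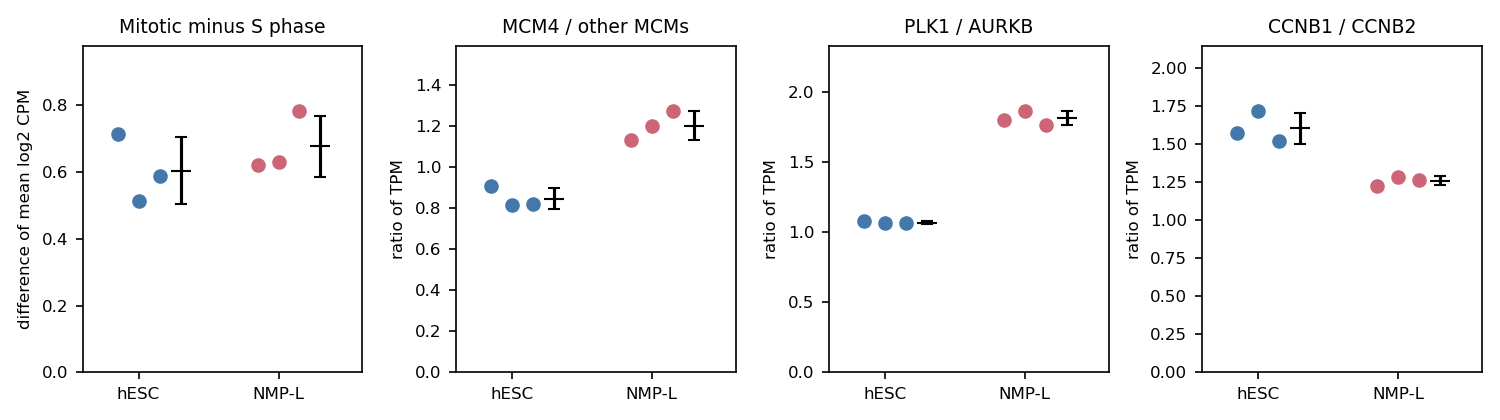
Ratios within each library of hESCs (left, blue) and NMP-L cells (right, red), with bars for the mean ± SD of 3 libraries: the mitotic minus the S phase mean level (difference of mean log2 CPM), MCM4 over the geometric mean of the other MCM2 to MCM7 subunits, PLK1 over AURKB and CCNB1 over CCNB2 (ratios of TPM). The first overlaps between the conditions and the other 3 do not.

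Across the 53 genes, log2 fold change and GC content were correlated at r = -0.378 (Spearman -0.318) before the correction and 0.015 (0.064) after it, as a description over genes that share the same 6 libraries. The correction takes out the trend with GC content, so a weak correlation after it was built in. For all genes tested the Spearman correlation before the correction was -0.231. Median GC content was 54.3% over MCM2 to MCM7, and the 5 lower subunits remained lower after the correction, at -0.32 (MCM2), -0.22 (MCM3), -0.49 (MCM5), -0.68 (MCM6) and -0.32 (MCM7). MCM6 has less GC than the rest (43.2%), and its difference grew with the correction.

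Other genes of the same processes passed the test at shares near the 55.8% of all genes. Of 44 further replication genes, 15 were higher and 9 lower (54.5%, median 0.14). After the correction for GC content and length 16 were higher and 13 lower (median 0.06), as were 32.0% and 32.4% of all genes. Not all followed the members of their role. Of 7 further genes listed with licensing, 3 were higher and 0 lower (ORC5 at 0.52, MCM8 at 0.46 and MCM9), with a median of 0.36. After the correction 3 were higher and 1 lower, with a median of 0.17. Median GC content was 40.0% over these 7 genes and 50.7% over the 11 licensing members. MCM8 and MCM9 are not subunits of the MCM2 to MCM7 ring. The origin recognition genes ORC2 (-0.17), ORC3 (0.11) and ORC4 (0.36) and MCMBP (0.10) did not pass the test. ORC2 passed after the correction, at -0.33 (adjusted p = 0.00027). The nucleotide supply genes DUT, DCTPP1 and TK1 were lower, at -0.53, -0.46 and -0.40. Of 7 firing genes 4 were higher and 2 lower, and of 26 fork genes 7 and 4. The 3 largest falls were in RECQL4, a helicase needed for origin firing (-0.80, adjusted p = 9.4e-05), CHAF1A, which assembles histones behind the fork (-0.68, 4.2e-05), and TICRR, a firing factor (-0.61, 9.5e-05). The 3 largest rises were in MTBP, the partner of TICRR (1.03, adjusted p = 0.00023), CDC7, the kinase that fires origins (0.65, 0.00019), and MCM9 (0.63, 0.00045), a helicase outside the MCM2 to MCM7 ring. TICRR and MTBP thus moved in opposite directions: TICRR lay at 107, 102 and 112 CPM in hESCs and 75.5, 68.1 and 65.5 CPM in NMP-L cells, and MTBP at 11.7, 8.13 and 7.99 CPM and 16.3, 19.2 and 21.4 CPM.

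Of 75 further mitotic genes, 26 were higher and 17 lower (57.3%, median 0.11). After the correction 27 were higher and 24 lower (median 0.07), as were 32.0% and 32.4% of all genes. By role, the higher and lower genes numbered 1 and 6 of 8 for entry, 5 and 1 of 7 for kinases and the passenger complex, 2 and 3 of 10 for checkpoint and exit, 7 and 1 of 18 for the kinetochore, 8 and 4 of 20 for kinesins, spindle and cytokinesis and 3 and 2 of 12 for chromosomes, beside 29.1% and 26.7% of all genes. In the same order they numbered 1 and 5, 4 and 0, 3 and 6, 7 and 4, 9 and 4, and 3 and 5 after the correction. Differences between roles were not tested. The largest falls were in UBE2C, the ubiquitin carrier of the anaphase-promoting complex (-0.63, adjusted p = 6.7e-05), TACC3, a spindle protein (-0.55, 0.00016), and CKS2, a partner of CDK1 (-0.53, 0.00027). The UBE2C count was not whole in NMP-L replicate 2 alone (2253.99). The largest rises were in SKA1, which couples kinetochores to microtubules (0.94, adjusted p = 1.7e-05), KIF18A, a kinesin (0.81, 0.00059), and BORA, an activator of AURKA and PLK1 (0.78, 8.7e-05).

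Among 22 genes of the E2F, pocket protein, MuvB and NF-Y families, which regulate the genes above, 6 were higher and 3 lower (40.9%, median 0.18). The share of all genes was 55.8%. After the correction 8 were higher and 5 lower (median 0.10), as were 32.0% and 32.4% of all genes. TFDP2, a partner of the E2F proteins, was at 82.7, 81.0 and 80.2 CPM in hESCs and 36.3, 35.7 and 37.3 CPM in NMP-L cells. Its libraries were tight within each condition and far apart between them (-1.16, SE 0.08, adjusted p = 3.6e-07). TFDP1, the other partner, rose from 73.1, 68.8 and 74.4 CPM to 111, 108 and 104 CPM (0.58, SE 0.08, adjusted p = 7.4e-05). E2F1, an activator, was lower (-0.67, adjusted p = 0.00017) and E2F7, a repressor, higher (0.62, 0.00098). LIN54, the MuvB subunit that binds CHR elements, was higher (0.80, adjusted p = 0.00014), and NFYA of the CCAAT-binding factor lower (-0.39, 0.0044). Some NFYA counts were not whole, such as 1180.86 in NMP-L replicate 1. The NF-Y genes were split, as NFYC was higher (0.40, adjusted p = 0.0036) and NFYB did not pass the test (0.18, adjusted p = 0.14).

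The effective transcript length that RSEM used, read from the ratio of counts to TPM, was compared to see whether isoforms shifted. None of the 53 genes passed limma's test (0 called; 0.338% of 12732 genes tested), although 35 of the 53 had an unadjusted p under 0.05, as did 39.7% of all genes, and 34 passed when NMP-L replicate 3 was left out, as did 35.8% of all genes tested in that setting. The largest shift was 0.03 on the log2 scale (RFC3). Counts were not whole numbers for AURKA and BUB1B in every library, and for CDT1 in NMP-L replicate 1 alone (2273.9). Such counts arise where RSEM shares reads between genes, so the values of AURKA and BUB1B are less certain.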

How the data were processed

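Expression was measured by single-end 76 bp RNA-seq in 6 libraries, 3 per condition, grouped by the labels. The values deposited by the authors are, per gene, expected counts from RSEM that were not normalised between libraries, and TPM, scaled for effective length and library total. The submitters' processing notes name cutadapt 1.9.1, STAR 2.5.2a, RSEM 1.3.0, DESeq2 1.12.3 and hg19 (GRCh37); the annotation was not given in the sources used here. Of the table's per-sample columns, 0 were left unused.

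Counts were rounded to whole numbers and fitted in R 4.3.3 with edgeR 4.0.16 on the whole table: filterByExpr with a minimum count of 10 (15517 genes), TMM scaling, glmQLFit and glmQLFTest, Benjamini-Hochberg adjustment over all genes, threshold 0.05. A standard error is the log2 fold change divided by the square root of F. CPM are TMM-scaled. Effective length was log2 of count over TPM, centred per library, for genes with at least 20 counts and a TPM of 1, tested with limma 3.58.1. Alternatives were RLE, upper-quartile and library-size scaling, DESeq2 1.42.0, limma on log2(TPM + 0.1), 2 other filters, each library left out, a replicate block, and a lowess correction per library (span 0.3) for GC content and transcript length. GC content and length came from the GENCODE release for GRCh37, matched by symbol (23876 genes directly, 998 by another name, 2798 unmatched), with values for all 53 genes. Tables were joined in Python 3.11.15 and drawn with matplotlib 3.10.9.

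The genes and lists were chosen with earlier results of these data known. All 53 are named. Library values are printed for the 4 largest changes in each direction of each class and for CDT1, GMNN, PCNA, MKI67, CCNB1 and CDK1; the other genes with library values, the ratios and the promoters were chosen after their values were seen. Of the other lists, the 3 largest called changes each way with at least 10 CPM are named. ORC2, ORC3, ORC4, ORC5, MCMBP, MCM8, DUT, DCTPP1, TK1, INCENP, CDCA8, NFYB and NFYC were added with their values in view. Single values of some list genes are left out. Tested on simulated data for this comparison (15517 genes, 200 changed), the fit recovered 88 of 100 genes changed by 1 (log2) and 100 of 100 changed by 2, with 9 false calls. In the data 55.8% of genes passed, and the largest change among the 53 genes was 0.83. The simulation therefore does not show how many changes as small as theirs the test would miss. The p-values measure the spread between these biological replicates of 1 line. With 3 libraries against 3, an exact permutation test of a single value cannot give a p under 0.1, so ratios within libraries were not tested.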

Additional observations from a re-analysis of the deposited data

How the results depend on the processing

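Across 16 alternatives, 21 of the 22 genes that passed the test kept their direction, and 11 also passed in all of them. The same shares over all genes were not determined. POLD1 turned from -0.26 to 0.0142 with the correction for GC content and length and to 0.0144 with that and the replicate block. Over the single genes, 732 of 848 values kept their side of the threshold, 63 lost it, 51 gained it and 2 reversed. The counts moved as follows. The replicate block left 7 S phase genes (3 higher and 4 lower), 3 higher mitotic genes and 48.7% of all genes called. For replicates 1, 2 and 3, the hESC and NMP-L deviations were correlated at -0.366, -0.0579 and -0.133. These values cannot decide whether the numbers pair the samples, because the GC trends within each number had opposite signs. The trends (Spearman, hESC and NMP-L) were -0.644 and 0.593 for replicate 1, 0.459 and -0.03 for replicate 2, and 0.359 and -0.505 for replicate 3. With library size alone 4 S phase genes were lower, 14 regulators were called, and the medians were 0.0047 (S phase) and 0.0344 (mitotic), and with TPM 4 S phase genes were lower, 8 mitotic genes were higher and the medians were 0.0273 and 0.0592. Lower mitotic genes numbered 7 with RLE and 7 with upper-quartile scaling (mitotic median -0.0715). The correction for GC content and length gave 17 mitotic genes (12 lower, median -0.0783), and together with the block 15 (11 lower, median -0.0777; 60.8% of all genes called). The mitotic minus S phase difference was 0.20 with medians and 0.06 with summed TPM; as a difference of mean log2 fold changes it went from 0.07 to 0.03 with the correction and to 0.02 with correction and block. The cause of these shifts was not tested.

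With 1 library left out at a time, S phase genes called ranged from 7 to 13 (2 to 5 higher and 4 to 10 lower), higher mitotic genes from 2 to 5 the S phase median from -0.1052 to -0.0277 and the mitotic median from -0.0833 to -0.0264; S phase genes called were 7 without hESC replicate 3 and 8 without NMP-L replicate 2, and higher mitotic genes were 2 without hESC replicate 2 or 3 or NMP-L replicate 3. Genes with a called effective length ranged from 0 to 34, the latter without NMP-L replicate 3. The lowest count of any of the 53 genes was 191, and the 3 libraries per condition limit every standard error.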
